A study of Mus musculus with 9 samples.

Results

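The 10 genes described here encode fibrillar collagen chains (Col1a1, Col1a2, Col3a1, Col5a1 and Col5a2) and small leucine-rich proteoglycans (Lum, Dcn, Bgn, Fmod and Ogn), and they were chosen by name. All 10 were found on the array, as 18 probes on 27 spots per array, and all 10 were among the 20923 genes measured, of 28786 gene names on the array. The study compared mice homozygous for the Glis3zf mutation of the zinc finger transcription factor Glis3 with wild-type (WT) mice. At postnatal day 3 (PND3), total RNA labelled as pancreas from 2 Glis3 mutant pups of the C57BL/6 strain formed 1 pool, and total RNA from 2 WT pups of the same strain and age formed the other. Both pools were hybridised together on 2 Agilent arrays with the dyes swapped, with mutant RNA in Cy3 on one array and in Cy5 on the other. The pair of arrays, taken from the mirrored labels to hold the same 2 RNA pools, counts as 1 replicate and allows no test of the genotype: the spread between arrays is technical, and differences between pups were not measured. Arrays of embryonic pancreas in the same series were not used here.

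Fibrillar collagens are trimeric proteins that assemble outside the cell into the banded fibrils that give connective tissue its tensile strength. Type I collagen is built from the Col1a1 and Col1a2 chains, type III from Col3a1 alone, and type V, from Col5a1 and Col5a2 among others, starts fibrils and limits their width. Small leucine-rich proteoglycans bind the surface of these fibrils and control their diameter and spacing. Decorin (Dcn) and biglycan (Bgn) carry chondroitin or dermatan sulfate chains, fibromodulin (Fmod) and lumican (Lum) carry keratan sulfate, and osteoglycin (Ogn), also called mimecan, belongs to a further class. Fibroblasts and related stromal cells are the main source of most of these proteins, and in pancreas they are known from the stroma and from scarring.

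Each value below is the log2 ratio of mutant over WT after background correction and dye normalization, given first for the array that held mutant RNA in Cy3 and then for the dye-swapped array, and signals are the scanner software's processed signals in the same order. Correction with an offset of 50 draws the ratios of dim probes toward 0. Across the 20923 genes, the median ratio was -0.01, the 5th and 95th percentiles were -0.31 and 0.29, and the median difference between the arrays was 0.11 log2 units. A spot was clearly lit (well above background by the scanner's flag) for 72.8% and 73.5% of spots in the mutant pool, against 74.0% and 76.6% in the WT pool, and no spot was saturated. The Glis3 probe, named here as the targeted gene, gave signals of 3.88 and 3.39 in the mutant pool, with the flag unset on both arrays, against 22.1 and 21.5 in the WT pool, so Glis3 was at least 1.16-fold lower in the mutant pool. That bound sets the WT level over whichever was higher, the probe's own mutant level or the dimmest level among probes flagged in the mutant channel. These levels include the offset of 50, which draws the bound of a dim probe toward 1, so it is not an estimate of the size of the difference. Where that probe lies relative to the mutation was not determined.

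The tissue label was set against marker genes first. Of 19 pancreas hormone and enzyme markers, 12 were measured, with a median signal of 56 for mutant RNA and 57 for WT RNA, and Ins1, Gcg, Ppy, Amy2, Cela2a and Ptf1a were among those not measured. The 15 markers of kidney nephron had a median signal of 19035 for mutant RNA and 17345 for WT RNA. The RNA is therefore called by its genotype here, and not by its tissue. Signals of different probes cannot be compared as transcript levels, and in bulk RNA fewer cells of a type and less RNA per cell cannot be told apart.

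The probes on which the results turn are 60 bases long, and the first 30 bases of each are given from the scanner files so that the measured transcripts can be identified. The 8 shown are those of the 6 members that were lower or higher on both arrays, and a pair of Col1a1 probes with different ratios. The files give no position of these probes in their transcripts.
Lum A_51_P167527: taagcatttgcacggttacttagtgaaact
Col3a1 A_51_P515605: ataagccaaactctctgaaaccccagcaaa
Dcn A_51_P334104: aacaccttcagatgtgtctatgtgcgttct
Ogn A_51_P295085: cattaaagcatctgtgaactgtaaggccac
Bgn A_52_P162486: caatcagattcggatgattgagaatgggag
Fmod A_51_P207622: ggcaagcgtggttttcaaaacatgagaaag
Col1a1 A_52_P525107: ttttcctttgcattcacctttcaaacttag
Col1a1 A_51_P377094: tgcaacctggacgccatcaaggtctactgc
The longest run of identical bases between full-length probes of different members was 9 bases.

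Among the collagens, Col3a1 was lower in the mutant pool. On their brightest probes and after dye normalization by brightness, the chains of types I and V were close to the middle of all genes or differed between the arrays. Col3a1 had signals of 48108 and 45745 in the mutant pool, against 71325 and 64283 in the WT pool. Both mutant signals lay below both WT signals, and the log2 ratio was -0.60 and -0.44, with a mean of -0.52, or 1.43-fold lower. Of all genes measured, 1.15% had a mean ratio as low or lower.

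Col1a1, the major chain of type I collagen, gave signals of 57121 and 52807 in the mutant pool, against 60879 and 56328 in the WT pool on its brightest probe. Its log2 ratio was -0.21 on one array and 0.01 on the other, with a mean of -0.10. This probe is printed 10 times on each array, which shows the spread of the spots. With mutant RNA in Cy3, the 10 ratios ran between -0.26 and -0.18 (SD 0.021), and all were below 0. With mutant RNA in Cy5, they ran between -0.05 and 0.07 (SD 0.041), and 4 of 10 were below 0. After loess the arrays thus differed by more than the spread of spots within an array. The scanner's own ratio was -0.09 on each array, with the mutant signal lower on 9 and 10 of the 10 spots, so it had no such gap between arrays. Background correction and dye normalization both differ from the scanner's, and which of them brought the gap was not tested.

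Col1a2, the partner chain of type I collagen, had signals of 83537 and 86977 in the mutant pool, against 91901 and 77663 in the WT pool. Its ratios of -0.23 and 0.26 pointed in opposite directions, with a gap beyond the 95th percentile of 0.32 for all genes, so that the mean of 0.01 gives no direction. Col5a1, the main chain of type V collagen, had signals of 8867 and 7745 in the mutant pool, against 8806 and 8239 in the WT pool, with ratios of 0.01 and -0.10. Its partner Col5a2 had signals of 2488 and 2171 in the mutant pool, against 2435 and 2107 in the WT pool, with ratios of 0.07 and -0.02. After loess neither type V chain kept 1 direction over both arrays, while the scanner's own ratio was 0.03 and 0.04 for Col5a2. Col5a2 lies next to Col3a1 on chromosome 1 in RefSeq's gene order.

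**Figure D1:**
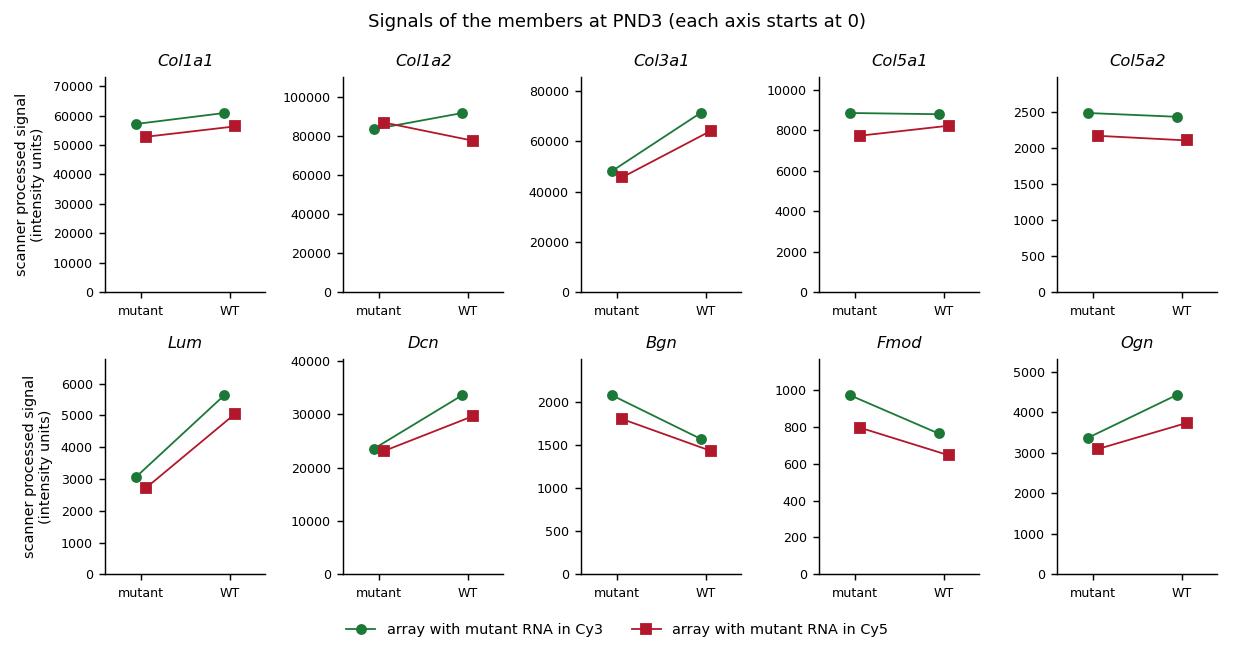
Scanner processed signal (intensity units, each axis from 0) of the brightest probe of each member in the mutant and the WT pool at PND3, with a line for each array. Lines climb toward WT for Lum, Col3a1, Dcn and Ogn, and slightly for Col1a1. They drop toward WT for Bgn and Fmod, and slightly for Col5a2, and they cross for Col1a2.

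The proteoglycans split. Lumican, decorin and osteoglycin were lower in the mutant pool, and biglycan and fibromodulin were higher, each on both arrays. Lum had the lowest ratio of the 10 members, with signals of 3051 and 2727 in the mutant pool against 5643 and 5055 in the WT pool. Its log2 ratio was -0.79 and -0.93, with a mean of -0.86, or 1.82-fold lower, and 0.306% of genes had a mean ratio as low or lower.

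Dcn had signals of 23490 and 23124 in the mutant pool, against 33587 and 29660 in the WT pool. Its ratio of -0.52 and -0.37, with a mean of -0.45, was 1.36-fold lower and stood with the lowest 1.78% of genes. Ogn had signals of 3367 and 3097 in the mutant pool, against 4426 and 3742 in the WT pool, and ratios of -0.35 and -0.29, with a mean of -0.32, and 4.43% of genes had a mean ratio as low or lower. Mutant and WT signals did not overlap for Lum, Dcn or Ogn, nor for Col3a1 above, but the share of all genes without overlap was not counted.

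Bgn, the closest relative of decorin among the members, went the other way. It had signals of 2079 and 1801 in the mutant pool, against 1572 and 1430 in the WT pool, and a log2 ratio of 0.35 on each array, or 1.28-fold higher. A ratio as high or higher was found for 2.63% of genes. Fmod, which shares its class with lumican, had signals of 972 and 795 in the mutant pool, against 764 and 645 in the WT pool, and ratios of 0.35 and 0.25, with a mean of 0.30, or 1.23-fold higher, a value reached by 4.28% of genes. Both mutant signals lay above both WT signals for these genes, again without a count over all genes.

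The scanner software gives each spot an error of its log ratio, which was 0.20 to 0.22 log2 units for the brightest probe of the members. The scanner's own ratio exceeded that error on both arrays for 6 members (Lum, Col3a1, Dcn, Ogn, Bgn and Fmod) and on neither array for 4 (Col1a1, Col1a2, Col5a1 and Col5a2). The share of all genes beyond this error was not counted, so these counts do not set the members apart from other genes. This error covers the measurement of a spot and not the difference between pups.

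**Figure D2:**
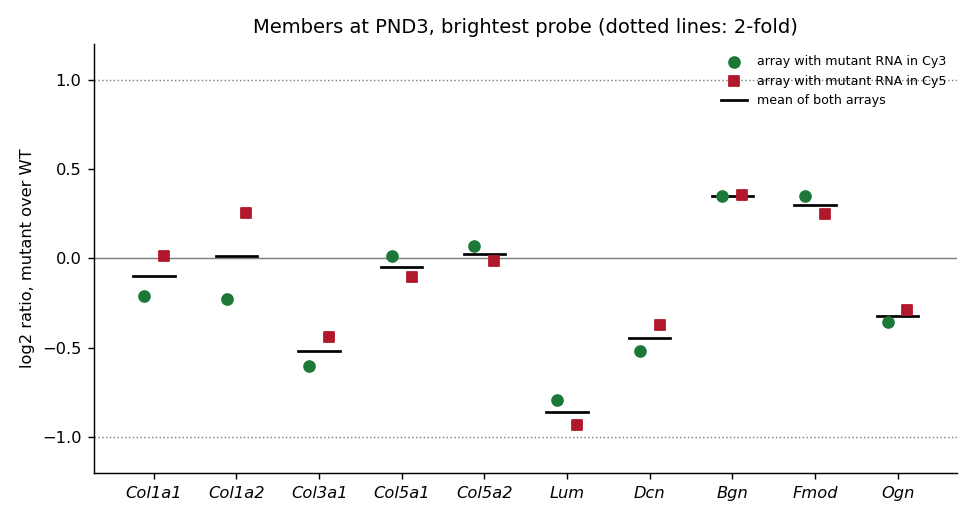
Log2 ratio of mutant over WT for the brightest probe of each member, with a circle where mutant RNA was in Cy3, a square where it was in Cy5 and a bar for their mean; dotted lines mark 2-fold. Lum, Col3a1, Dcn and Ogn lie below 0 on both arrays, Bgn and Fmod lie above 0 on both, and no member reaches 2-fold on both.

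Counted over the members, 4 of 10 were lower in the mutant pool on both arrays, against 37.9% of all genes, and 2 of 10 were higher on both arrays, against 30.9%. The first share is near that of all genes and the second is below it. On either array alone, 6 members were below 0 and 4 above, against 51.9% of all genes below and 48.1% above with mutant RNA in Cy3, and 55.1% below and 44.9% above with mutant RNA in Cy5. None of the 10 was at least 2-fold apart on both arrays in the same direction, against 0.191% of all genes. Lum alone was at least 1.5-fold lower on both arrays, against 0.626% of all genes. At a limit of 0.32 log2 units, 3 members were lower by at least that much on both arrays (Lum, Col3a1 and Dcn), against 2.94%, and 1 was higher (Bgn), against 1.84%. With the scanner's own ratio the counts were again 3 and 1, but against 5.94% and 4.22% of all genes. An offset of 0 also left them at 3 and 1, against 4.81% and 3.07%. The shares of all genes thus depend on the background correction more than these member counts do. Without the array that held mutant RNA in Cy5, 2 passed the upper limit (Bgn and Fmod), against 5.89% of all genes, and 4 the lower, against 6.15%. With the mean over all measured probes, 2 passed the lower limit, against 2.42%, since Col3a1 was then at -0.23. The median of the members was -0.07 and that of all genes -0.01. These are descriptions of 1 pool per genotype, and no test was made.

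Several members have further probes, and these did not always repeat the brightest probe. A second Col1a1 probe, A_51_P377094, gave signals of 5186 and 4879 in the mutant pool, against 6870 and 6084 in the WT pool, with ratios of -0.35 and -0.36. A further one, A_52_P658611, gave 123 and 117 in the mutant pool, against 111 and 115 in the WT pool, with ratios of 0.06 and -0.01. The 3 Col1a1 probes therefore ran between no difference and a ratio of -0.36.

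For Col3a1, the dim probe A_52_P684242 gave 138 and 141 in the mutant pool, against 131 and 123 in the WT pool, with ratios of 0.05 and 0.07, unlike the bright probe. The other Col3a1 probe, A_52_P8643, failed the background flag in both pools on both arrays. The lower Col3a1 ratio thus rests on 1 probe. The second Bgn probe, A_52_P19711, shared the direction of the first, with signals of 26.6 and 27.5 in the mutant pool against 18.1 and 16.9 in the WT pool and ratios of 0.14 and 0.15.

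The second Dcn probe was well above background on no array in the mutant pool and on 1 array in the WT pool, and it gets no fold. The second Col1a2 probe, A_52_P424253, gave 17.5 and 16.8 in the mutant pool, well above background on 1 array, against 30.3 and 27.6 in the WT pool, well above background on both, with ratios of -0.24 and -0.08. The second Col5a1 probe, A_52_P237371, gave 137 and 113 in the mutant pool, against 132 and 98 in the WT pool, with ratios of 0.03 and 0.14. Over the 6639 genes with further measured probes, a further probe differed from the brightest by a median of 0.11 log2 units, with a 95th percentile of 0.39, and the Col3a1 pair lay beyond that. Lum, Fmod, Ogn and Col5a2 have 1 probe each.

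**Figure D3:**
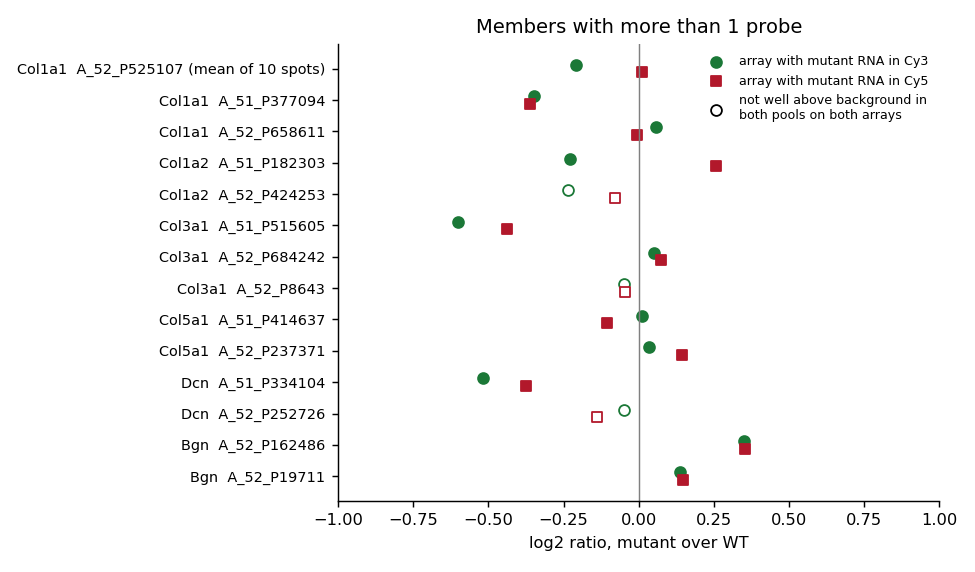
Log2 ratio of mutant over WT for every probe of the 6 members with more than 1 probe; circles and squares are the arrays with mutant RNA in Cy3 and Cy5, and open symbols mark probes that failed the background flag at least once. The bright Col3a1 probe lies near -0.52 and its second probe near 0.06, and the 3 Col1a1 probes run between -0.36 and 0.03.

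The scaling of the arrays moved the bright members together. Centring each array on its median in place of the dye normalization by brightness put the median of all genes at -0.11 and that of the members at -0.34, with 7 of 10 members lower on both arrays, against 54.4% of all genes, 4 lower by 0.32 log2 units, against 9.79%, and none higher by that much. That last count was also 0 when the mean over all measured probes stood for a gene. The brightest 5% of genes, which hold 4 members, had a median of -0.01 with the normalization by brightness and -0.29 with median centring. Under median centring, Lum was at -1.07, Col3a1 at -0.81, Dcn at -0.71 and Ogn at -0.54, while Bgn at 0.17 and Fmod at 0.14 stayed above 0. Col1a2 and Col5a2, which have no direction of their own, moved to -0.29 and -0.16. Col1a1 moved to -0.39 and Col5a1 to -0.28, so the place of the type I and V chains near the middle depends on the scaling.

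**Figure D4:**
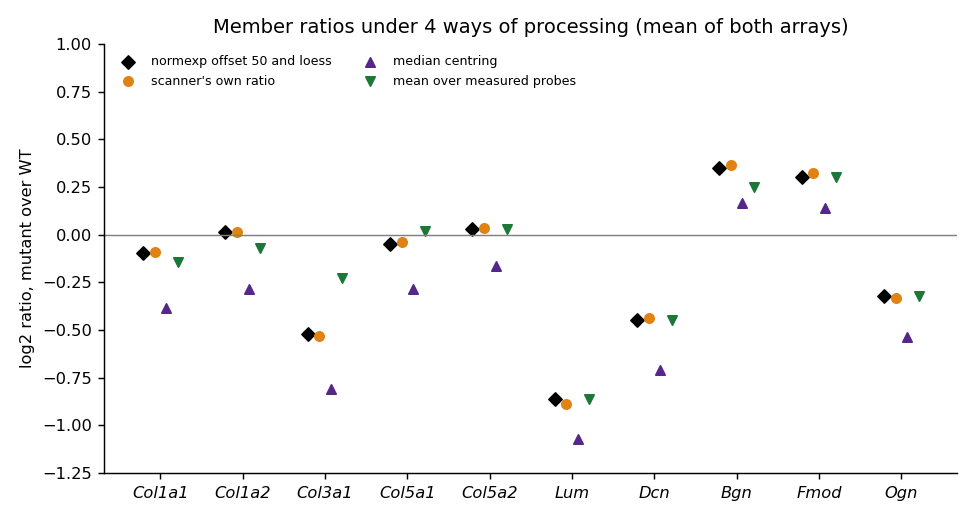
Log2 ratio of mutant over WT (mean of both arrays) of each member under 4 ways of processing: offset 50 with loess, the scanner's own ratio, median centring, and the mean over measured probes. Median centring lowers every member, Col3a1 is -0.23 as a mean over its probes, and Lum, Col3a1, Dcn, Ogn, Col1a1, Bgn and Fmod keep their sign in all 4.

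Most other gene lists of this matrix biology held genes on both sides of 0 after loess, and with median centring most counts moved toward lower. The other 5 fibrillar collagens were all measured, with 2 lower and 2 higher on both arrays and a median of 0.01. Col11a1, a chain of cartilage fibrils, had a mean ratio of 0.28, and Col2a1, the main collagen of cartilage, -0.21. Of the other 11 small leucine-rich proteoglycans, 4 were lower and 2 higher on both arrays, with a median of -0.05. An offset of 0 gave the same counts. With the scanner's own ratio 7 were lower and 2 higher, against 38.7% and 34.9% of all genes, with a median of -0.12. Without background subtraction 6 were lower and 2 higher, against 37.9% and 31.0%. Many of these probes are dim, with a median signal of 82 for mutant RNA and 78 for WT RNA. Podn had a ratio of 0.29 and Aspn, a relative of decorin and biglycan, -0.28.

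Of the 9 fibril-associated and beaded collagens, 4 were lower and 3 higher. Col14a1, which binds the fibril surface, stood at -0.45, and Col9a1, which coats cartilage fibrils, at 0.41. The median of these 9 was 0.03, and -0.20 with median centring.

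Genes that fold, hydroxylate, trim and cross-link procollagen had more members above 0 than below after loess: of 25 measured of 27, 13 were higher and 4 lower on both arrays, with a median of 0.10. With median centring the split was reversed, with 3 higher and 9 lower, where 19.2% of all genes were higher and 54.4% lower. The counts of this list thus have no direction that holds under both scalings. Its median was then -0.04, against -0.11 for all genes, and after loess 0.10 against -0.01, so it lay above that of all genes under both. Loxl2, a cross-linking lysyl oxidase, had the highest ratio of that list at 0.61. Plod3, a lysyl hydroxylase, stood at 0.32, and P4hb, a subunit of the prolyl hydroxylase, at 0.31. Pcolce2, which speeds removal of the procollagen tail, stood at -0.35.

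Of 14 measured genes for the dermatan and chondroitin sulfate chains that decorin and biglycan carry, 5 were lower and 7 higher, with a median of 0.05. Dse, the epimerase that makes dermatan sulfate, had a ratio of -0.44. Of 9 measured genes of collagen breakdown, 4 were lower and 4 higher. The inhibitor Timp2 stood at 0.41 and the protease Mmp2 at 0.26.

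Of 19 genes of TGF-beta signalling and its neighbours, 8 were lower and 6 higher, and Ccn2, connective tissue growth factor, stood at 0.39. Of 14 measured basement membrane genes, 5 were lower and 6 higher, with Lamc1, a laminin chain, at -0.38 and Lamb2 at 0.34. Among 20 other matrix and elastic fibre genes, 8 were lower and 6 higher. Efemp1, a fibulin, stood at 0.86, with mean signals of 5725 in the mutant pool, against 3172 in the WT pool. Dpt, which binds decorin, stood at -0.74, with 217 in the mutant pool, against 404 in the WT pool.

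These counts depend on the scaling. With median centring, where 54.4% of all genes were lower and 19.2% higher on both arrays, the chain synthesis genes had 8 lower and 0 higher, with a median of -0.09. The TGF-beta list had 15 lower and 1 higher, with a median of -0.19. Basement membrane genes had 9 lower and 1 higher, with a median of -0.18. The other matrix and elastic fibre genes had 14 lower and 2 higher, and their median was -0.29, against -0.04 after loess. The fibril-associated collagens had 6 lower and 2 higher. The other fibrillar collagens had 2 lower and 1 higher, with a median of -0.02, the other proteoglycans had 5 lower and 3 higher, with a median of -0.08, and collagen breakdown had 4 lower and 3 higher, with a median of 0.01, against -0.04 after loess.

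**Figure D5:**
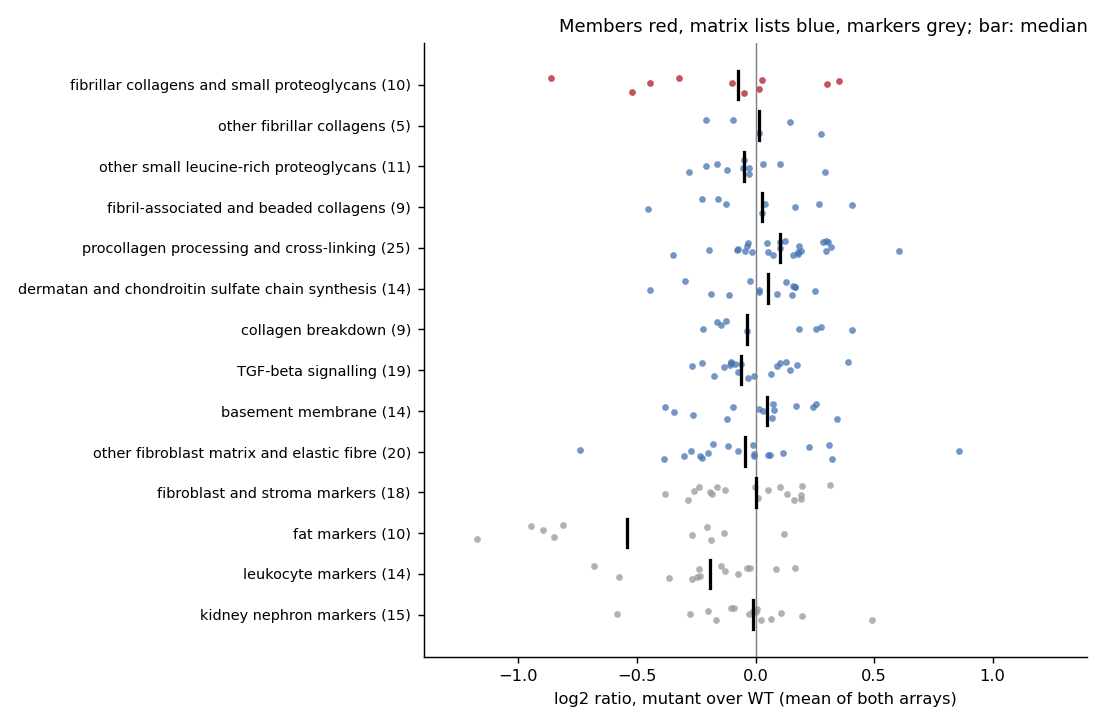
Log2 ratio of mutant over WT (mean of both arrays) of the measured genes of each list, 1 point per gene, with a black bar at the median; the number of measured genes is in brackets, and the oocyte, pancreas, muscle, endothelium and bone lists are left out. The members spread between -0.86 and 0.35, the matrix lists have medians between -0.06 and 0.10 after loess, which median centring moves (to -0.29 for other matrix genes), and the fat markers have a median of -0.54.

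After loess, markers of fat were mostly lower in the mutant pool, while those of stroma lay on both sides of 0. The 18 fibroblast and stroma markers had 8 lower and 7 higher on both arrays and a median of 0.00, and their summed signal was 231652 and 218287 in the mutant pool, against 229326 and 211756 in the WT pool. Of 10 measured fat markers of 11, 9 were lower and 1 higher, with a median of -0.54, and their summed signal was 62378 and 58031 in the mutant pool, against 74639 and 67870 in the WT pool. Ucp1, the uncoupling protein of brown fat, stood at -1.17.

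Of 14 leukocyte markers, 9 were lower and 1 higher, with summed signals of 33686 and 30756 in the mutant pool, against 40336 and 36394 in the WT pool. Of 8 measured bone, cartilage and tendon markers of 13, 5 were lower and 1 higher, with sums of 9710 and 8675 in the mutant pool, against 11708 and 10184 in the WT pool, and Ibsp, Matn1, Matn3 and Tnmd were not measured. Of 10 measured oocyte and ovary markers of 12, 9 were lower and 1 higher, with sums of 531 and 450 in the mutant pool, against 3049 and 2776 in the WT pool, and Zp2, Nlrp5, Nlrp14 and Figla failed the background flag for mutant RNA on each array.

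Kidney nephron markers had 5 lower and 4 higher of 15, with sums of 384018 and 356453 in the mutant pool, against 411421 and 391784 in the WT pool. Pancreas markers had 4 lower and 2 higher of 12 measured, with sums of 1950 and 1654 in the mutant pool, against 2007 and 1656 in the WT pool. Muscle markers had 5 lower and 3 higher of 10 measured, and endothelium markers 3 lower and 1 higher of 7. With median centring, the stroma markers had 11 lower and 1 higher, with a median of -0.18, against 0.00 after loess. Kidney nephron markers then had 10 lower and 1 higher, with a median of -0.25, against -0.01 after loess. Fat markers had 10 lower and 0 higher, leukocyte markers 11 and 0, bone, cartilage and tendon markers 6 and 0, endothelium markers 6 and 0, muscle markers 5 and 1, oocyte and ovary markers 9 and 1, and pancreas markers 3 lower and 5 higher. The part of these cell types in the member ratios was not tested.

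RefSeq promoter windows of 300 bases (250 before to 50 after the start, build GRCm38.p6) were at hand for 6 of the 10 members: Col1a2, Col3a1, Col5a1, Bgn, Fmod and Ogn. Both strands were searched for the CCAAT box, for the TATA box written TATAAA, for the GC box written GGGCGG, and for TGGGGGGT, a core of the site that GLIS proteins bind. The 120 bases before the start are shown for 2 members that were lower (Col3a1 and Ogn), for 2 that were higher (Bgn and Fmod), and for Col5a1, which holds TGGGGGGT. Capitals mark these motifs on either strand, the GC box excepted.
Col3a1, chr1:45311418-45311537, plus strand: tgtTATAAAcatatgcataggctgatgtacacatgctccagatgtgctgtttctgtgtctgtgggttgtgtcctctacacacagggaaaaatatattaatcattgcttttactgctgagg
Ogn, chr13:49607895-49608014, plus strand: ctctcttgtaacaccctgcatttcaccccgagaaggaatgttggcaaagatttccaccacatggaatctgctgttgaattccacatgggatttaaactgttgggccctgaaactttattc
Bgn, chrX:73483481-73483600, plus strand: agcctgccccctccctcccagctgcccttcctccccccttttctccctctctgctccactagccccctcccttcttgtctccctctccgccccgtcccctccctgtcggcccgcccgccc
Fmod, chr1:134037134-134037253, plus strand: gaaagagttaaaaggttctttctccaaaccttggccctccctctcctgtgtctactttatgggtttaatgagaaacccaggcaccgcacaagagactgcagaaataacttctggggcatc
Col5a1, chr2:27886305-27886424, plus strand: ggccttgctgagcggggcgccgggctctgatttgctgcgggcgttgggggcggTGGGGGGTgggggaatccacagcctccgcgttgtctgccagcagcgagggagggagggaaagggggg
TGGGGGGT occurred in 1.53% of 32851 promoter windows and, among the 6 members, in Col5a1, whose ratio had no direction; it begins 67 bases before the start. TATAAA, in 13.6% of windows, was found in Col3a1, beginning 117 bases before the start, and in Ogn, beginning 227 bases before it. GGGCGG, in 35.7% of windows, was found in Col1a2, Col5a1 and Bgn, and CCAAT, in 37.4%, in Col1a2 and Fmod. The CCAAT of Fmod begins 34 bases after the start, outside the bases shown. These matches are descriptions of the letters in the windows.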

How the data were processed

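Two-channel signals of both PND3 arrays were read from the deposited scanner files, which per the file headers hold spot intensity values, flags and a log10 ratio of red over green. Agilent Feature Extraction 8.1 is named in the submitters' processing notes. The deposited value table of the same arrays holds log2 ratios centred on 0, and its slope on the scanner ratio was 1.00. With R 4.3.3 and limma 3.58.1, mean signals were background-corrected (normexp, offset 50) and normalized within each array by loess, with control spots at weight 0 and 18 and 26 outlier spots left out. The sign was turned where mutant RNA was in Cy3. Spots of a probe were averaged. The brightest probe stood for a gene, chosen from those that passed the scanner's background flag on both arrays for 1 genotype or more. A probe took the RefSeq symbol of its accession where one matched, and otherwise the gene name of the files. Member probes kept the names of the files, and 14 of the 18 matched RefSeq. The calculation was tested on simulated ratios.

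All members and all their probes are named, with up to 4 genes of each other list and 2 of each marker list with ratios farthest from 0. The members and lists were chosen with earlier results of these data known. The number of arrays limits the precision, and 1 pool per genotype gives no p. The embryonic arrays, deposited as intensity values, were not used because their probe sets were not paired with gene names here. Alternatives covered background correction, normalization, filters, probe choice, fold and single arrays.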

Additional observations from a re-analysis of the deposited data

How the results depend on the processing

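Over 10 alternative settings of the ratio, Lum (between -1.07 and -0.79), Col3a1 (between -0.81 and -0.23), Dcn (between -0.71 and -0.37), Ogn (between -0.54 and -0.29), Bgn (between 0.17 and 0.37) and Fmod (between 0.14 and 0.35) kept their sign in all 10. Col1a1 kept it in 9, Col5a1 and Col5a2 in 8 and Col1a2 in 7. Not every setting could turn a sign. The filter settings left each member at its value after loess, and the deposited value table repeats the scanner's ratio. Leaving out 1 array could not turn a member that was on the same side of 0 on both arrays. With median centring, 7 members were lower on both arrays and 0 were higher by at least 0.32 log2 units, against 54.4% and 0.65% of all genes. With the mean over all measured probes, 0 were higher by at least 0.32 log2 units, against 1.6% of all genes. The count lower by that much, 3 after loess, ran between 2 (mean over probes) and 4 (median centring, or mutant RNA in Cy3 alone). With 1.5-fold in place of 2-fold, 1 was lower, because the limit is smaller. With 1 array left out, 4 members were higher in either case, against 44.9% and 48.1% of all genes, and between 1 and 2 were higher by at least 0.32 log2 units, against 3.72% and 5.89%, since a single array asks for no agreement. The cause of the shift with median centring was not tested. No paired analysis was possible because PND3 has 1 pool per genotype and the probe sets of the embryonic arrays were not paired with gene names, so the alternatives planned for those arrays (replicate block, pseudocount, filter, normalization, leaving out arrays) were not run. Dim probes limit the further probes of Col1a2, Col3a1 and Dcn.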

Other observations

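In RefSeq's gene order, Dcn and Lum lie side by side on chromosome 10, followed by Kera, which encodes keratocan of the cornea, and Epyc, which encodes epiphycan of cartilage. Log2 ratios of mutant over WT were -0.25 and -0.16 for Kera and -0.14 and -0.10 for Epyc. All 4 genes of this row were thus below 0 on both arrays, as were 37.9% of all genes. Btg1 and Eea1, which come before Dcn and are not of this family, were below 0 on both arrays too. Their ratios were -0.18 and -0.31 for Btg1 and -0.34 and -0.03 for Eea1. Kera was well above background on 1 array in the mutant pool and on both in the WT pool. On chromosome 13, Ogn follows Ecm2, Aspn and Omd, with ratios of -0.14 and -0.18 for Ecm2, -0.32 and -0.24 for Aspn, and -0.09 and 0.04 for Omd. On chromosome 1, Fmod follows Optc, at 0.04 and -0.15, and Prelp, at 0.03 and -0.12, neither of which kept its direction over both arrays. These rows were picked after their values were seen.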
